A study of Homo sapiens with 9 samples.

Results

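Small nucleolar RNA (snoRNA) and small nuclear RNA (snRNA) loci were examined in poly(A)-selected RNA of HEK293 cells, a human embryonic kidney line. The loci are the gene symbols of the deposited count table that start with SNORA, SNORD, SCARNA or RNU and a number, chosen by their mean raw count, which had to be at least 10 over the 9 libraries. Of 482 such loci, 214 met the threshold, out of 26485 genes in the table. They were 130 SNORD (box C/D), 69 SNORA (box H/ACA), 14 SCARNA (Cajal body) and 1 RNU locus, RNU86. The 9 libraries form 3 groups of 3. The addback group is the UBE3D KO with UBE3D put back. The KO group had UBE3D, an E3 ubiquitin ligase gene, knocked out by CRISPR/Cas9. The WT group is wild type for UBE3D. Per the labels every sample is a pool, and neither separate cultures for the libraries nor the number of KO clones are given, so p-values measure the spread between these libraries, which may be technical. UBE3D RNA was at 3473, 2980 and 2425 CPM (counts scaled to a common library total) in addback, at 15.2, 18.7 and 16.7 CPM in KO and at 20.6, 18.5 and 22.4 CPM in WT libraries. KO and WT overlapped, so this RNA level checks the addback label but not the KO label.

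SnoRNAs are short nuclear RNAs that guide chemical modification of other RNAs. Box C/D snoRNAs bind fibrillarin and guide 2′-O-methylation, and box H/ACA snoRNAs bind dyskerin and guide pseudouridylation, mostly of ribosomal RNA. Cajal body RNAs do the same for spliceosomal snRNAs. Most human snoRNAs are cut from introns of host genes, many of them ribosomal protein or noncoding SNHG genes, by debranching of the spliced intron and trimming of its ends. Spliceosomal snRNAs, U3, U8 and U13 are instead transcribed from promoters of their own. Mature snoRNAs and snRNAs carry no poly(A) tail, so a poly(A) library does not measure their level, and a read at these loci can come from any polyadenylated or carried-over RNA or DNA that covers them.

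Sequences are shown for the loci on which the results turn, as annotated in GENCODE v29 on GRCh38, 5′ to 3′. The first set holds copies of the imprinted snoRNA clusters that had no read in KO libraries. SNORD116-15 lies at chr15:25081287-25081378, SNORD116-14 at chr15:25080142-25080233, SNORD116-20 at chr15:25087662-25087753 and SNORD115-35 at chr15:25234247-25234328, all within the long transcript SNHG14, and SNORD114-28 lies at chr14:100989130-100989201 within MEG8. All 5 are on the plus strand. Capitals mark the C box and the D box of box C/D snoRNAs.

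SNORD116-15: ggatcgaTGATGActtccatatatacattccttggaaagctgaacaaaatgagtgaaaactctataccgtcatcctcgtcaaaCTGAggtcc
SNORD116-14: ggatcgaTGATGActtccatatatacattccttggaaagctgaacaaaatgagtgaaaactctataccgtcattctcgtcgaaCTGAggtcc
SNORD116-20: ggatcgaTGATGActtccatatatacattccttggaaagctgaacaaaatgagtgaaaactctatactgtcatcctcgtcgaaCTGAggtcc
SNORD115-35: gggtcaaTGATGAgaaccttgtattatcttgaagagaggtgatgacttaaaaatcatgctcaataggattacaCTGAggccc
SNORD114-28: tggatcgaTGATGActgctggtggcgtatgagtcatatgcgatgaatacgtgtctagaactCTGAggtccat

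Each pair of the 3 SNORD116 copies differed at 2 of 92 positions, so short reads of these copies can be hard to assign to 1 of them. The authors' rule for reads with several placements is not given in the sources used here, and values of single copies are uncertain for that reason. Of the 214 loci, 18 shared a stretch of 50 bases with another locus of these symbols, and 15 of those 18 lay in the SNORD114 to SNORD116 clusters.

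The second set holds box C/D loci whose level differed between KO and WT by the test used below. SNORD23 (chr19:47755853-47755962, plus strand) lies in an intron of GLTSCR2, now named NOP53. SNORD17 (chr20:17962710-17962946, minus strand) lies in an intron of SNX5. SNORD95 (chr5:181243312-181243379, minus strand) lies in an intron of GNB2L1, now named RACK1. Capitals mark the C and D boxes.

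SNORD23: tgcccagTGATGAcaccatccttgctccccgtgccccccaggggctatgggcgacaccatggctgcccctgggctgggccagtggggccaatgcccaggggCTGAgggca
SNORD17: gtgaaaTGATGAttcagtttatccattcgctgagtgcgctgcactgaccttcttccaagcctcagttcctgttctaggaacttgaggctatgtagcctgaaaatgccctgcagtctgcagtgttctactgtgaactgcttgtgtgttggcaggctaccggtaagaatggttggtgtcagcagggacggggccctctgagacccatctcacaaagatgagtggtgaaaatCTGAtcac
SNORD95: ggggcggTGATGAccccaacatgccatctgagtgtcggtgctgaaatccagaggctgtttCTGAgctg

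The third set holds the box H/ACA locus of highest level, SNORA70 (chrX:154400281-154400415, plus strand, intron of RPL10), and SNORA66 (chr1:92840719-92840851, plus strand, intron of RPL5), which was lower in KO libraries. Capitals mark the H box and the ACA box.

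SNORA70: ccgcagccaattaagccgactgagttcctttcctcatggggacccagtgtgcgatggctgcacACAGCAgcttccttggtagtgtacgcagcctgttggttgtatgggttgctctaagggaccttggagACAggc
SNORA66: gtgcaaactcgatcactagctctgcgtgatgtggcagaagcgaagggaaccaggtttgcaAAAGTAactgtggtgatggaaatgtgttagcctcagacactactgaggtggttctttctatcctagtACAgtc

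GENCODE held a sequence for 196 of the 214 loci. The C box, written TGATGA, stood within the first 20 bases of 70.8% of 120 SNORD loci above the threshold and of 71.5% of all 260 SNORD loci with a sequence, against 0% and 0.769% on the opposite strand. The D box, CTGA, stood within the last 15 bases of 94.2% and 92.7%, against 5.83% and 6.15% on the opposite strand. The ACA box stood within the last 8 bases of 87.7% of 65 SNORA loci above the threshold and of 90.1% of all 101, against 12.3% and 12.9% on the opposite strand. The H box, ANANNA, stood within 35 bases around the middle of 89.2% and 90.1%, against 35.4% and 32.7% on the opposite strand. The loci above the threshold thus held these letters about as often as all loci of their class.

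Few reads fell on these loci. The 9 libraries held 23088295 to 37508780 counts, and the 214 loci took 0.0137% to 0.0256% of them. The loci were short, with a median length of 98.5 bases against 2415 bases over all genes of the table. By the deposited annotation, 170 of the 214 lay in an intron of a gene on the same strand and 1, SCARNA17, lay over an exon and an intron. The other 43 had no host there. The median distance from a locus to the nearest exon of its host was 96 bases, in introns with a median length of 607 bases. The hosts numbered 100, and GAS5 and SNHG1, noncoding genes known for intronic snoRNAs, held 8 loci each.

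The threshold itself was met unevenly. A mean of at least 10 counts was reached by 212 of the 214 loci in addback, 112 in KO and 211 in WT libraries, and by 110 in every group. The 4 loci just inside were SNORA80E and SNORD114-31 with a mean of 10.0 counts and SNORA75 and SNORD70 with 10.1. Just outside were SNORA57, SNORA58 and SNORD36B, each with 9.89. A locus read mainly in addback and WT libraries could pass, so the number of loci that differ between groups is partly set by the threshold, and the 110 loci are given separately below.

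All 118 loci of the SNORD113, SNORD114, SNORD115 and SNORD116 clusters had 0 counts in each of the 3 KO libraries. SNORD115 and SNORD116 are brain-enriched snoRNAs of the imprinted Prader-Willi region on chromosome 15, and SNORD113 and SNORD114 belong to the imprinted DLK1-DIO3 region on chromosome 14. Together the 118 loci had 434, 1885 and 1719 counts in addback, 0, 0 and 0 counts in KO and 516, 1471 and 1511 counts in WT libraries. With 3 counts as the most that a count of 0 allows, their summed level in KO was at most 0.114, 0.113 and 0.0800 CPM, counting error only, against 15.5, 59.9 and 56.8 CPM in addback and 17.6, 41.5 and 65.4 CPM in WT, scaled to total counts. KO overlapped with neither addback nor WT, while addback and WT overlapped each other. Addback 1 and WT 1 stood below the other libraries of their groups. In RNA of whole cultures, fewer cells with a transcript and less of it per cell cannot be told apart.

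Of the 118, 31 passed the threshold: 7 of SNORD114, 8 of SNORD115 and 16 of SNORD116. SNORD116-15, the copy with most reads, had 18, 97 and 67 counts in addback, 0, 0 and 0 in KO and 7, 36 and 31 in WT libraries. Against a floor of 3 counts over the KO group, the addback level of SNORD116-15 was at least 51.3-fold higher than that of KO, and KO was at least 20.9-fold lower than WT. SNORD116-21 had 4, 61 and 61 counts in addback, none in KO and 14, 42 and 41 in WT libraries. SNORD115-35 had 12, 38 and 36 counts in addback, none in KO and 5, 50 and 11 in WT. SNORD114-28 had 7, 17 and 18 counts in addback, none in KO and 14, 24 and 52 in WT. Over the 31 loci these lower bounds ran from 7.62 to 51.3 for addback over KO, with a median of 19.2, and from 7.06 to 27.4 for WT over KO, with a median of 15.8. With 0 counts in KO, these 31 copies could pass the threshold only through addback and WT libraries. Their bounds, calls and p-values were thus largely set by the threshold and add nothing to the counts themselves. The 30 of them that entered the test (SNORD115-7 did not) were called in both comparisons by edgeR's quasi-likelihood test at a Benjamini-Hochberg adjusted p under 0.05. For SNORD116-15 the adjusted p was 0.000938 for addback against KO, and 2.85e-10 to 0.00480 over 18 alternatives.

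Genes that HEK293 cells do not normally express showed the same split. Summed over 379 odorant receptor genes, sensory receptors of the nose, counts were 8449, 39892 and 40357 in addback, 150, 143 and 219 in KO and 9653, 31602 and 37802 in WT libraries. Both sums were lowest in replicate 1 of addback and of WT, and near or at 0 in all 3 KO libraries. Protein-coding neighbours of the clusters, chosen after the clusters' values were seen, were also read in addback and WT: MAGEL2 had 40, 156 and 135 counts in addback, 0, 0 and 0 in KO and 33, 190 and 89 in WT, and RTL1 had 56, 331 and 257 in addback, 0, 0 and 1 in KO and 51, 454 and 98 in WT. UBE3A, which lies in the same region and is broadly expressed, had 2553, 2815 and 2909 counts in addback, 2519, 2650 and 3913 in KO and 2669, 2950 and 2225 in WT. Several longer RNAs of these regions had almost no reads in any group: PWAR1 and MEG8 had 0 counts in all 9 libraries, IPW 1, 0 and 1 in addback, KO and WT summed over libraries, and SNRPN 2, 0 and 0. MEG3, a noncoding RNA of the chromosome 14 region, had 29, 86 and 83 counts in addback, 7, 3 and 17 in KO and 12, 119 and 29 in WT, with WT 1 below KO 3. Annotations overlap there, and how the authors counted overlapping genes is not given in the sources used here. Of 17 marker genes of blood, liver, fibroblasts, breast epithelium and neurons, 13 were lower in every KO library than in every addback and WT library. These 13 summed to 27.4 to 94.8 CPM in addback, 3.40 to 3.54 CPM in KO and 30.8 to 145 CPM in WT libraries. MS4A1, COL1A2, DCN, KRT14 and ELF5 had no count in at least 1 KO library, while HBB, COL1A1, LUM and GAD1 did not show the split. All 9 marker genes of HEK293 cells had counts in every library. Their sum was 1974 to 2508 CPM in addback, 3044 to 3479 CPM in KO and 1918 to 2517 CPM in WT libraries. VIM, KRT8, KRT18 and LHX1 were higher in every KO library than in every addback and WT library. PAX2 was the only 1 of the 9 that was lower in every KO library, with 11.3, 15.1 and 13.0 CPM in addback, 3.20, 2.41 and 4.03 CPM in KO and 10.8, 15.3 and 13.2 CPM in WT libraries. IRS4 averaged 313 ± 42.4 CPM in addback, 247 ± 52.3 CPM in KO and 773 ± 120 CPM in WT (SD, n = 3 each). The part of these reads in the snoRNA result was not tested.

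**Figure D1:**
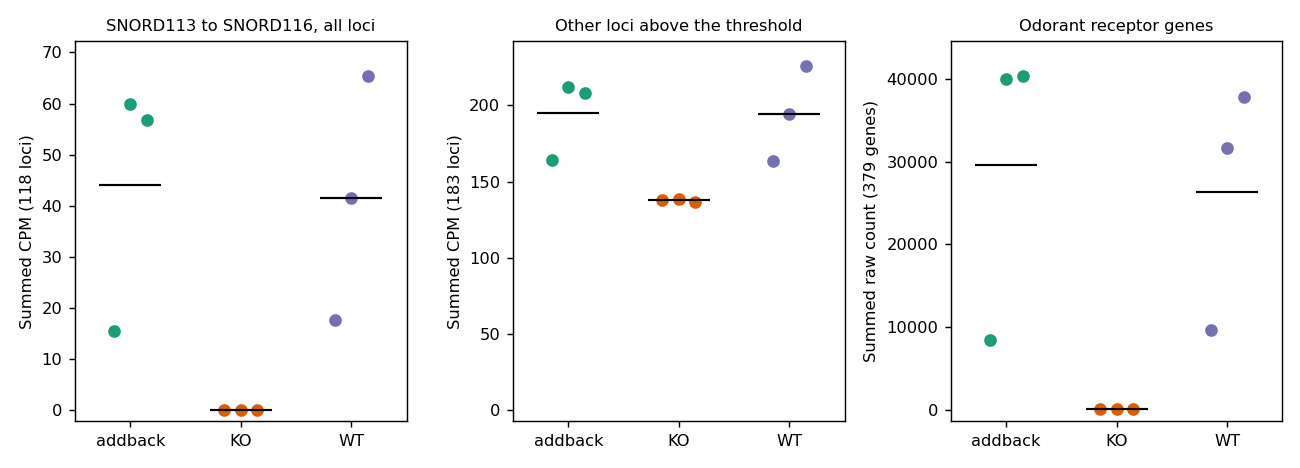
Summed level of the 118 SNORD113 to SNORD116 loci (left, CPM of total counts), of the 183 other loci above the threshold (middle, CPM of total counts) and summed raw counts of 379 odorant receptor genes (right), by group. Points are libraries 1 to 3 from left to right and lines are group means; KO libraries lie at 0 counts in the left panel, at 137 to 139 CPM in the middle panel and at 143 to 219 counts in the right panel.

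The other 183 loci were read in all groups, at 164, 212 and 208 CPM in addback, 138, 139 and 137 CPM in KO and 163, 195 and 226 CPM in WT libraries, summed and scaled to total counts. The KO libraries lay below all others and close together. Scaled with TMM factors, which set libraries to a common scale from genes of middling fold, the 12 loci of highest mean CPM all lay in introns, that of SNORA40 by GENCODE only. SNORA70, in RPL10, was highest with 5.42, 5.27 and 4.49 CPM in addback, 6.35, 4.70 and 5.20 CPM in KO and 5.22, 3.80 and 3.30 CPM in WT libraries. Its groups overlapped, and the log2 fold was -0.10 ± 0.33 for addback against KO and 0.40 ± 0.33 for KO against WT (adjusted p of 0.810 and 0.306, edgeR). SCARNA12, in PHB2, SNORA67, in EIF4A1, SNORD36A, in RPL7A, SNORD96A, in RACK1, SNORD80, in GAS5, SNORD110, in NOP56, SNORD84, in DDX39B, SNORA40, in TAF1D, and SNORD55 were the other 9 beside SNORD17 and SNORD23. edgeR's fit of all 9 libraries called none of these 9 in the 3 comparisons, though DESeq2 called SNORA67 higher in KO than in WT (adjusted p = 0.0149), with KO against WT folds between -0.20 and 0.66 on the log2 scale.

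Comparing KO with WT, edgeR called 62 of the 213 loci that entered the test, 2 higher and 60 lower in KO. Over all 21994 genes tested, 61.6% were called, 24.2% higher and 37.4% lower. The share among these loci, 29.1%, lay below that of all genes. Comparing addback with KO, 56 were called higher and 0 lower, where 59.8% of all genes were called, 38% higher and 21.8% lower. Both comparisons use the same KO libraries. With a filter of 1 CPM in 3 libraries, which 76 of these loci pass, 15 and 12 were called, and with only the groups compared in the fit 27 and 27. Comparing addback with WT, 0 of 213 were called by edgeR's test, where 2.57% of all genes were called, 1.71% higher and 0.868% lower. At an unadjusted p under 0.05 there were also 0 of 213, where 11.4% of all genes lay under it. DESeq2 called 0 as well, with 1 locus at an unadjusted p under 0.05, against 15.1% of all genes. With the replicate number as a block, which treats libraries of 1 number as matched, edgeR called 0. In that fit 7 had an unadjusted p under 0.05, 5 of them cluster copies, against 17.0% of all genes. In the authors' deposited table of genes, 4 of the 214 loci were higher and 67 lower in KO than in WT, where 21.1% of all genes were higher and 41.2% lower. For addback against KO the authors' deposited table had 65 higher and 1 lower, where 39.8% of all genes were higher and 22.2% lower.

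Outside the SNORD114 to SNORD116 clusters, 30 of 183 loci were called lower and 2 higher in KO than in WT, 17.5% in all. Of all genes 37.4% were lower and 24.2% higher. In addback against KO, 26 of the 183 were called higher and 0 lower, 14.2% in all, where 38% of all genes were higher and 21.8% lower. These loci were thus called less often than genes in general. The median locus among them had 11 to 28 counts per library, and few counts make a call harder. The shares were not compared at like depth, so the lower share is not read as a trait of the loci. The median log2 fold of the 183 loci was -0.41 for KO against WT, against -0.12 over all genes, and 0.39 for addback against KO, against 0.14 over all genes. By class, 2 SNORD loci were called higher, and 13 of 99 SNORD, 12 of 69 SNORA and 5 of 14 SCARNA loci lower, in KO than in WT. RNU86, an intronic box C/D locus in RPL3 that RefSeq names SNORD139, had 81, 90 and 60 counts in addback, 44, 44 and 59 in KO and 64, 66 and 42 in WT libraries and was not called (log2 fold 0.01 ± 0.46 for KO against WT, adjusted p of 0.993, edgeR).

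**Figure D2:**
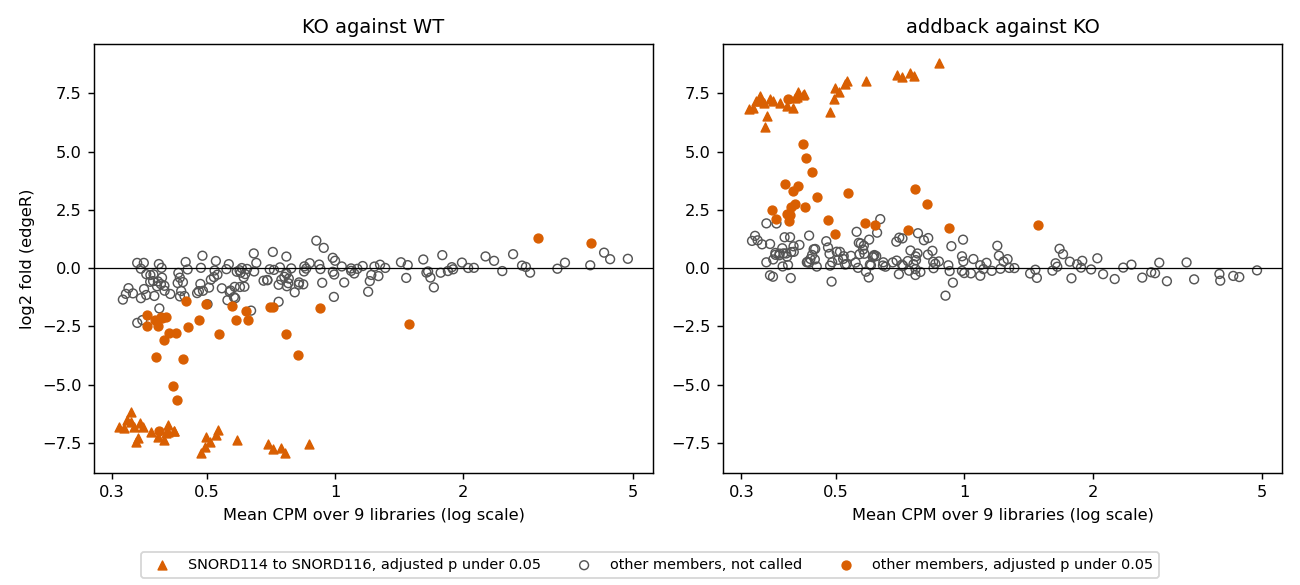
Log2 fold of each tested locus (edgeR; KO against WT left, addback against KO right) against its mean CPM over 9 libraries on a log scale. Triangles are SNORD114 to SNORD116 copies, whose folds are fitted against 0 counts in KO and depend on the prior count; filled symbols have an adjusted p under 0.05. The filled circles below 0 on the left lie under 1 CPM except SNORD95, and the 2 called loci above 0 are SNORD23 and SNORD17.

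Among the 110 loci with a mean of at least 10 counts in every group, a choice that leaves out loci low in KO, 2 were called higher and 1 lower in KO than in WT, and 1 was called in addback against KO. Of all genes 61.6% and 59.8% were called in these 2 comparisons. The median log2 fold of the 110 loci was -0.05 for KO against WT and 0.15 for addback against KO. Spearman's rank correlation of the KO against WT fold was largest with the mean raw count, at 0.52 over the 183 loci. The mean count includes the KO counts, and the threshold acts on it. The correlation was -0.11 with the length of the locus over the 183 loci. It was -0.35 with the distance to the nearest host exon and -0.33 with the length of the intron over the 168 loci in introns. These points share libraries and, in part, hosts, and the values are a description.

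The difference in CPM of WT minus KO, with total counts as the scale, had a median of 0.331 CPM over the 183 loci, 164 of which were lower in KO, with quartiles of 0.145 and 0.513 CPM and a range of -2.04 to 2.23 CPM. Over all 118 cluster loci, whatever their counts, the median was 0.350 CPM, with quartiles of 0.0903 and 0.516 CPM. Over the 31 cluster copies above the same threshold the median was 0.617 CPM, with quartiles of 0.519 and 0.829 CPM. With 0 counts in KO these 31 passed only through addback and WT, which raises their differences. They ran from 0.276 to 1.15 CPM, and 100 of the 183 other loci lay within that range, 80 below it and 3 above it. For addback minus KO the median was 0.262 CPM over the 183 loci, 0.289 CPM over all 118 cluster loci and 0.734 CPM over the 31 cluster copies.

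SNORD23 had the larger of the 2 called rises in KO cells. It is of the box C/D class, and its host NOP53 encodes a ribosome biogenesis factor. SNORD23 had 3.35, 2.67 and 2.72 CPM in addback, 4.60, 4.52 and 3.80 CPM in KO and 2.34, 1.33 and 1.55 CPM in WT libraries. Every KO library lay above every addback and WT library, and every addback library lay above every WT library. The log2 fold was 1.31 ± 0.42 for KO against WT (edgeR, adjusted p = 0.0198, 6.45e-05 to 0.0680 over 18 alternatives) and -0.56 ± 0.42 for addback against KO (adjusted p = 0.260). The call was lost without KO library 1 (adjusted p = 0.0680, log2 fold 1.26) and without KO library 2 (adjusted p = 0.0643, log2 fold 1.27). The exact permutation test of 3 against 3 libraries gave p = 0.1 for each pair of groups, two-sided, the smallest p this design allows. GLTSCR2 mRNA itself had a log2 fold of 0.29 ± 0.15 for KO against WT (adjusted p = 0.106, edgeR), with 215 ± 33.7 CPM in addback, 243 ± 2.88 CPM in KO and 198 ± 40.0 CPM in WT (SD, n = 3 each).

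SNORD17, the longest snoRNA printed above, was the other called rise. It had 3.21, 4.60 and 3.56 CPM in addback, 5.07, 5.47 and 6.01 CPM in KO and 2.91, 2.80 and 2.24 CPM in WT libraries. Its groups did not overlap, in the same order as for SNORD23. The log2 fold was 1.06 ± 0.36 for KO against WT (edgeR, adjusted p = 0.0235, 0.000234 to 0.115 over 18 alternatives) and -0.54 ± 0.35 for addback against KO (adjusted p = 0.202). The call was lost without KO library 1, 2 or 3 (adjusted p of 0.0615, 0.0723 and 0.0977), without WT library 3 (adjusted p = 0.0530) and with a scaling on genes of low background (log2 fold 0.68, adjusted p = 0.115) or upper quartile factors (adjusted p = 0.0571). SNX5, a sorting nexin gene and its host, was called higher in KO (log2 fold 0.62 ± 0.12, adjusted p = 0.00121, edgeR). Exact permutation tests gave p = 0.1 for each pair of groups. A further fit left out libraries 2 and 3 of addback and of WT, which hold the most odorant receptor counts. It keeps 1 library in each of these groups and takes the spread from the KO libraries alone, so only folds are given here. Over the 18 alternatives, this fit among them, the KO against WT log2 fold stayed positive for SNORD23 (0.88 to 1.58) and SNORD17 (0.68 to 1.13). SNORD55, SNORA14B and SNORD96A are named here because they stood out in this fit, so they were picked on its values. The KO against WT log2 fold of SNORD55 was 0.79 in this fit and 0.60 with all libraries, and SNORA14B was higher in KO. For addback against KO the log2 fold in this fit was -0.78 for SNORD17 and -0.56 for SNORD96A, and SNORA14B was also lower in addback.

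**Figure D3:**
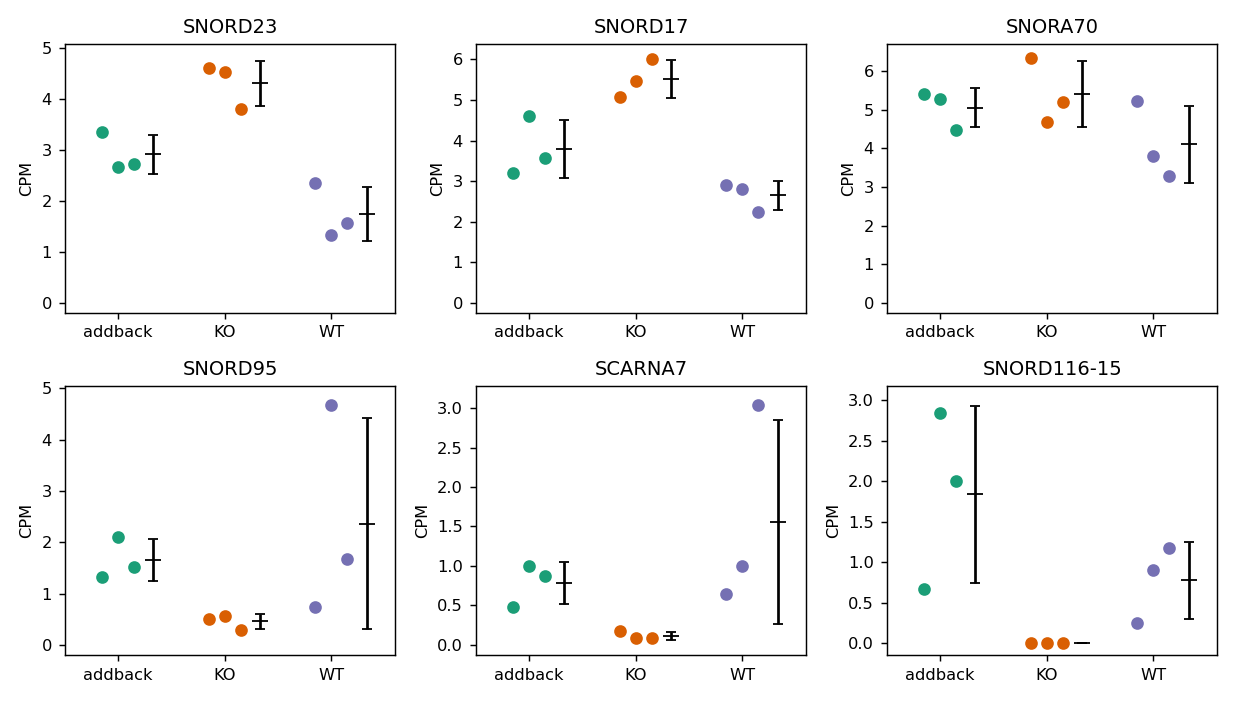
CPM (TMM-scaled) of 6 loci by group. Points are libraries 1 to 3 from left to right, and bars beside them are mean ± SD (n = 3). KO libraries are highest for SNORD23 and SNORD17, lowest for SNORD95 and SCARNA7 and at 0 for SNORD116-15, and the groups of SNORA70 overlap.

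Among the 30 loci called lower in KO than in WT outside the clusters, the 6 lowest folds were those of SNORA11B, SNORD123, SNORA70G, SNORA74B, SNORD126 and SCARNA7, named after their values were seen. SNORA11B, a box H/ACA locus deep in an intron of C14orf159, had 1, 34 and 28 counts in addback, 0, 0 and 0 in KO and 4, 28 and 20 in WT libraries, with addback at least 17.8-fold higher than KO, and KO at least 14.7-fold lower than WT. It was the only locus above the threshold outside the clusters with 0 counts in all 3 KO libraries. SNORD126, in an intron of CCNB1IP1, had 7, 18 and 25 counts in addback, 0, 2 and 1 in KO and 10, 23 and 22 in WT. SNORA74B, in ATP6V0E1, had 9, 26 and 33 counts in addback, 1, 0 and 2 in KO and 7, 34 and 18 in WT. For these 3 loci every KO library lay below every addback and WT library, by a single count for SNORA11B in addback library 1. SNORD123, in SNHG18, had 7, 14 and 21 counts in addback, 0, 0 and 1 in KO and 9, 7 and 53 in WT, and SNORA70G, with no host on its strand, had 12, 17 and 36 in addback, 1, 0 and 0 in KO and 13, 13 and 24 in WT. The KO against WT calls of these 6 loci held in each of the 15 to 18 alternatives in which the locus was tested. The alternatives reuse the same counts, and the loci were picked for their low folds. With few or no counts in KO, they passed the threshold through addback and WT, so the calls are no independent support.

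SCARNA7, a Cajal body RNA in an intron of KPNA4, an importin gene, had 0.479, 0.996 and 0.868 CPM in addback, 0.171, 0.0862 and 0.0897 CPM in KO and 0.639, 1.00 and 3.03 CPM in WT libraries. WT library 3 stood apart with 80 counts, and the KO libraries lay below all others. The log2 fold was -3.72 ± 0.77 for KO against WT (edgeR, adjusted p = 0.00200, 1.60e-06 to 0.0123 over 18 alternatives) and -2.84 without WT library 3 (adjusted p = 0.00640). Without libraries 2 and 3 of addback and WT, which leaves 1 library in each of these groups, it was -2.44. With all libraries the log2 fold was 2.74 ± 0.77 for addback against KO (adjusted p = 0.0106). KPNA4 mRNA moved the other way, with a log2 fold of 0.66 ± 0.11 for KO against WT (adjusted p = 0.000642, edgeR).

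SNORD95 was the locus called lower among the 110 loci read in every group. It had 36, 72 and 51 counts in addback, 12, 13 and 10 in KO and 21, 187 and 44 in WT libraries. WT library 2 stood apart, and every KO library lay below every other library. The log2 fold was -2.38 ± 0.71 for KO against WT (edgeR, adjusted p = 0.0132, 0.000112 to 0.256 over 18 alternatives) and 1.86 ± 0.70 for addback against KO (adjusted p = 0.0393, 0.000659 to 0.129 over 18 alternatives). Without WT library 2 the KO against WT fold was -1.40 (adjusted p = 0.0756), and without KO library 3 it was -2.14 (adjusted p = 0.0565). Without libraries 2 and 3 of addback and WT, which leaves 1 library in each of these groups, it was -0.73. The addback against KO call was lost without addback library 2 or 3 (adjusted p of 0.126 and 0.0826) and without KO library 1, 2 or 3 (adjusted p of 0.0840, 0.0767 and 0.129). SNORD96A lies in another intron of the same host, RACK1, and had 2.73, 3.19 and 2.75 CPM in addback, 4.22, 4.09 and 3.83 CPM in KO and 3.84, 3.13 and 3.37 CPM in WT. Its log2 fold of 0.23 ± 0.36 for KO against WT was not called (adjusted p = 0.596, edgeR), and the difference between these 2 loci of 1 host was not tested.

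SNORA66, in RPL5, had 32, 46 and 37 counts in addback, 5, 12 and 12 in KO and 32, 31 and 44 in WT libraries, and its KO libraries lay below all others. The log2 fold was -1.70 ± 0.55 for KO against WT (edgeR, adjusted p = 0.0200, 0.00189 to 0.0826 over 18 alternatives) and 1.73 ± 0.55 for addback against KO (adjusted p = 0.0196, 0.00136 to 0.0801 over 18 alternatives). The first call was lost without KO library 1 or 3 (adjusted p of 0.0826 and 0.0639) and without WT library 3 (adjusted p = 0.0669). The other was lost without addback library 2 or 3 (adjusted p of 0.0658 and 0.0545) and without KO library 1 or 3 (adjusted p of 0.0801 and 0.0632). RPL5 mRNA, for a ribosomal protein of the large subunit, had a log2 fold of 0.76 ± 0.14 for KO against WT (adjusted p = 0.00119, edgeR).

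For 173 of the 183 loci a host gene was tested, 98 hosts in all. Of the 98 hosts, 77 were called higher and 0 lower in KO than in WT, where 24.2% of all genes were higher and 37.4% lower. The hosts had a median log2 fold of 0.57, while the 173 loci in them had a median of -0.42, with 2 called higher and 27 lower. In 166 of 173 cases the locus had the lower fold, but the threshold was met by many of these loci only through addback and WT, which lowers their folds and does not apply to hosts. Among the 104 loci with a tested host and a mean of at least 10 counts in every group, the median log2 fold was -0.06 for the loci and 0.62 for their hosts, and the locus had the lower fold in 97 cases. For the 27 loci called lower, the host was called higher in 21 cases and lower in 0. For addback against KO, 75 hosts were called lower and 1 higher, where 21.8% of all genes were lower and 38% higher. The hosts had a median of -0.44, and the locus had the higher fold in 158 of 173 cases. Spearman's rank correlation between the folds of locus and host for KO against WT was 0.10 over the 173 loci, which share hosts. Whether a read at an intronic locus was also counted for its host is not given in the sources used here.

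**Figure D4:**
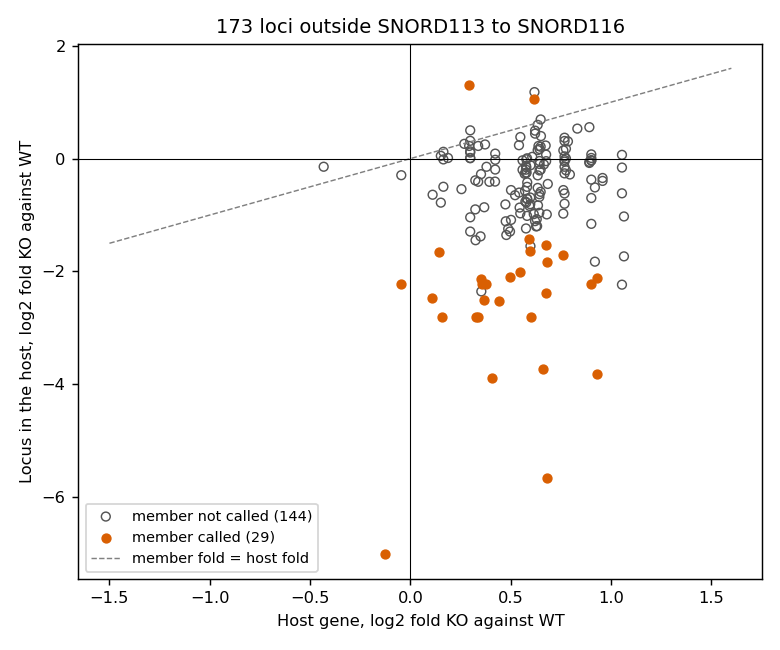
Log2 fold of 173 loci outside the SNORD113 to SNORD116 clusters against the log2 fold of their host gene, both KO against WT (edgeR). Filled points are loci with an adjusted p under 0.05 and the dashed line marks equal folds; 166 of the 173 points lie below it.

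The scaling of libraries bears on these directions. With TMM factors computed only on the 5103 genes whose estimated background, from the odorant receptor counts per kilobase, was at most 10% of their level, the median log2 fold of all genes was -0.51 for KO against WT and 0.49 for addback against KO. For KO against WT the median log2 fold of the 183 loci was -0.41 with the first scaling and -0.81 with this one. Relative to the median of all genes, the 183 loci stood at -0.29 and -0.30, the hosts at 0.70 and 0.71, and SNORD23 at 1.43 and 1.46. A change of scaling shifts all folds by nearly the same amount, and subtracting the median takes this shift out. The likeness of these relative values is therefore no check of the scaling. With this scaling 1 of the 213 loci was called higher, SNORD23, and 75 lower in KO than in WT, against 7.82% and 54.8% of all genes, and 71 were called higher and 0 lower in addback than in KO, against 51.5% and 5.63%. For addback against WT 0 were called, against 4.48% of all genes higher and 4.69% lower. With either scaling 0 also had an unadjusted p under 0.05 by edgeR, against 11.4% of all genes with the first scaling and 18.5% with this one. Of the hosts, 58 were called higher and 9 lower in KO than in WT, with a median log2 fold of 0.20. The direction of the medians thus held for loci and hosts under both scalings, while 9 hosts gained a lower call and 58 rather than 77 had a higher one.

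The 8 loci in GAS5 introns, SNORD44, SNORD47, SNORD74, SNORD76, SNORD77, SNORD78, SNORD79 and SNORD80, together had 222, 303 and 266 counts in addback, 152, 162 and 216 in KO and 207, 278 and 282 in WT libraries. Their log2 folds for KO against WT ran from -2.23 to 0.07 with a median of -0.20, and 1, SNORD78, was called. SNORD78 had 14, 28 and 18 counts in addback, 4, 7 and 6 in KO and 25, 20 and 45 in WT, while SNORD80 had 103, 122 and 123 in addback, 69, 72 and 110 in KO and 87, 110 and 97 in WT. GAS5 RNA was at 62.5 ± 6.63 CPM in addback, 78.6 ± 3.32 CPM in KO and 42.1 ± 6.31 CPM in WT (SD, n = 3 each), a log2 fold of 0.90 ± 0.12 for KO against WT (adjusted p = 0.000367, edgeR). The 8 loci in SNHG1 introns had 269, 290 and 273 counts in addback, 176, 191 and 268 in KO and 266, 280 and 233 in WT. Their log2 folds for KO against WT ran from -0.80 to 0.37, with 0 called by edgeR, 0 at its unadjusted p under 0.05 and 0 called by DESeq2, and SNHG1 RNA had a log2 fold of 0.77 ± 0.13 (adjusted p = 0.000790, edgeR).

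Loci with promoters of their own were almost unread. SNORD118 (U8, needed for processing of large-subunit ribosomal RNA), RNU1-1 and RNU6-1 (copies of the U1 and U6 snRNAs) had 0 counts in all 9 libraries, which allows at most 0.0800 to 0.130 CPM per library. RNU2-1 (U2) and RNU7-1 (U7, for histone mRNA ends) had 1 count each, both in KO library 3. RNU1-1, RNU2-1 and RNU6-1 have 9, 10 and 11 placements in the annotation, so their reads may have gone uncounted. RNU5A-1, a U5 snRNA locus, had 5, 3 and 6 counts in addback, 7, 10 and 13 in KO and 1, 2 and 3 in WT libraries. Every KO library of RNU5A-1 lay above every addback and WT library, at mean counts under the threshold and under the filter of the edgeR test. In the authors' deposited table of genes its log2 fold was 1.66 ± 1.26 for KO against WT (adjusted p = 0.0219). This fold with this SE would not by itself give this adjusted p, so the fold and the p-value may not rest on the same estimate.

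RNU12, of the minor spliceosome, had 4, 2 and 0 counts in addback, 3, 3 and 11 in KO and 0, 1 and 2 in WT libraries. RNU4-1, RNU4-2, RNU5B-1, RNU11, RNU4ATAC and RNU6ATAC had 0 to 6 counts in each library. SNORD3A, for the U3 snoRNA of early ribosomal RNA cleavage, was the only one of these loci above the threshold, with 23, 35 and 21 counts in addback, 32, 21 and 53 in KO and 29, 25 and 12 in WT. Its groups overlapped, with a log2 fold of 0.87 ± 0.53 for KO against WT (adjusted p = 0.171, edgeR). SNORD13, for the U13 snoRNA, had 1, 12 and 22 counts in addback, 1, 0 and 1 in KO and 3, 17 and 16 in WT, with every KO library at or below every other library.

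Reads past gene ends were available as downstream regions, which the authors found and tested for readthrough transcription. Of 2541 regions in the authors' deposited table of KO against WT, 40 name 1 of the 482 loci and 23 name at least 1 of the 214, with 49 of the 214 named in all. Of the 23, 13 were higher and 0 lower in KO at an adjusted p under 0.05 in the authors' deposited table, where 24.8% of all regions were higher and 25% lower. The median log2 fold of the 23 was 0.53 in the authors' deposited table, and 0 over all regions. In the authors' deposited table of addback against KO, 2 were higher and 8 lower, where 18.6% of 2396 regions were higher and 15.5% lower. The folds of these 2 deposited tables are on different scales, since those of addback against KO are shrunken towards 0.

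The region past RPL3, which carries RNU86, SNORD43, SNORD83A and SNORD83B in its introns, had the highest fold of the 23 in the authors' deposited table, 2.54 ± 0.13 on the log2 scale for KO against WT (adjusted p = 4.91e-86) and -1.35 ± 0.13 for addback against KO (adjusted p = 1.08e-28). The 4 loci inside RPL3 had 140, 227 and 176 counts in addback, 82, 89 and 127 in KO and 145, 218 and 120 in WT libraries, with KO against WT log2 folds from -1.01 to 0.01. Of the 4, 0 were called by edgeR, 0 had an unadjusted p under 0.05 and 1 was called by DESeq2. The region past CCNB1IP1, host of SNORD126, was at 1.69 ± 0.18 for KO against WT in the authors' deposited table (adjusted p = 5.45e-19) and at -0.60 ± 0.18 for addback against KO (adjusted p = 0.000543). The region past GLTSCR2, host of SNORD23, was at 1.10 ± 0.12 in the authors' deposited table for KO against WT (adjusted p = 5.14e-19) and at -0.35 ± 0.11 for addback against KO (adjusted p = 0.00399). The region past RNU5A-1 was at 0.76 ± 0.25 in the authors' deposited table for KO against WT (adjusted p = 0.00688) and at 0.14 ± 0.20 for addback against KO (adjusted p = 0.557). Regions past GAS5, NCL, HSPA9 and NOP58 were not called for KO against WT in the authors' deposited table, with log2 folds from -0.11 to 0.17. These 4 genes host 8, 2, 1 and 1 of the loci above the threshold. The 13 regions called higher in KO in the authors' deposited table name 23 of the loci, of which edgeR called 1 higher, SNORD23, and 2 lower, SNORD126 and SNORA73B. The 10 regions not called there name 26 loci, of which edgeR called 0 higher and 2 lower, SNORD78 and SNORD101. The median log2 fold of the loci was -0.41 for both kinds of region.

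**Figure D5:**
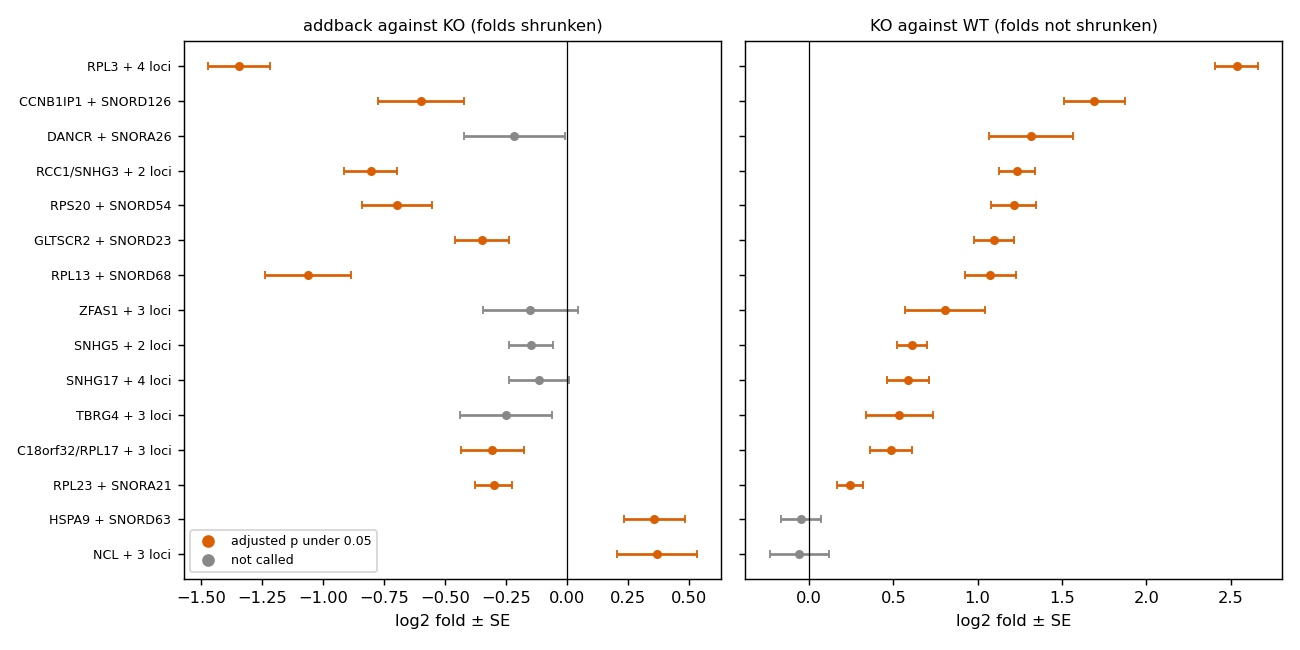
Log2 fold ± SE from the authors' deposited tables for those 15 of the 23 downstream regions naming a locus above the threshold that were called in at least 1 of the 2 comparisons, for addback against KO (left, shrunken folds) and KO against WT (right), in the order of the right panel. Rows give the host and the locus or the number of loci, and orange marks an adjusted p under 0.05. The RPL3 region has the highest fold on the right and the lowest on the left.

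Genes for proteins that build and process these RNAs are given beside the share of all genes, of which 24.2% were called higher and 37.4% lower in KO than in WT, and 7.82% and 54.8% with the scaling on genes of low background. For addback against KO these shares were 38% higher and 21.8% lower, and 51.5% and 5.63%. Of 4 box C/D proteins tested, 4 were called higher in KO than in WT: SNU13, which binds the C and D boxes, was at 126 ± 17.2 CPM in addback, 196 ± 7.58 CPM in KO and 121 ± 23.3 CPM in WT (log2 fold 0.69 ± 0.14 for KO against WT, adjusted p = 0.00181, edgeR), and FBL, the methyltransferase fibrillarin, was at 438 ± 58.6, 567 ± 11.2 and 387 ± 83.2 CPM in addback, KO and WT (0.55 ± 0.15, adjusted p = 0.00930). All 4 kept the call with the scaling on genes of low background, where the folds were 0.10 to 0.33. Of 6 box H/ACA proteins 4 were higher and 0 lower, with GAR1 at 0.72 ± 0.14 and the pseudouridine synthase DKC1 at 0.65 ± 0.12, and 2 kept the call with the other scaling. Of 7 snoRNP assembly factors 6 were higher and 0 lower, among them the ATPase gene RUVBL1 (0.63 ± 0.13), and 2 were higher and 1 lower with the other scaling. For addback against KO, 2 of the 4 box C/D proteins, 5 of the 6 box H/ACA proteins and 5 of the 7 assembly factors were called lower and 0 higher, against 1, 1 and 1 lower and 0, 1 and 2 higher with the other scaling.

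Of 9 factors of snRNA transcription, 3 were called higher and 1 lower in KO than in WT. SNAPC3, of the complex that binds snRNA promoters, was the lower one, at 31.1 ± 1.16 CPM in addback, 28.4 ± 0.996 CPM in KO and 44.8 ± 6.58 CPM in WT (SD, n = 3 each; log2 fold -0.66 ± 0.10, adjusted p = 0.000595, edgeR), and its addback against KO fold of 0.13 was not called. Of 14 genes for snRNA capping, export and the SMN complex, which loads Sm proteins, 8 were higher and 1 lower, and of 20 genes of the nuclear exosome and 3′ trimming, 14 were higher and 1 lower. EXOSC5, an exosome core subunit, had the largest fold of these, 0.92 ± 0.12 (adjusted p = 0.000368, edgeR), with 54.9 ± 6.39 CPM in addback, 85.6 ± 5.84 CPM in KO and 45.4 ± 6.17 CPM in WT. The scaling on genes of low background left 1 higher and 3 lower of the 9, 2 higher and 3 lower of the 14, and 2 higher and 4 lower of the 20, so most of these directions rest on the scaling. Of the 2 genes tested for intron debranching and host splicing, DBR1, the lariat debranching enzyme, was called higher and AQR not called, and with the other scaling AQR was called lower and DBR1 not called.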

How the data were processed

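Poly(A)-selected RNA of 9 HEK293 libraries was measured. Per the submitters' processing notes, cutadapt 1.8.1, STAR 2.5.2b and DESeq2 were used on hg38; the counter, its strand and multi-mapping settings and the annotation are not stated there or in any other source used here. The authors deposited a table of raw counts per gene and library, with gene length in bases (unit: other). For genes and for downstream regions, the result tables that the authors deposited hold base means (unit: signal), log2 fold changes, test statistics (unit: score), p-values and adjusted p-values. Region tables hold no library values.

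The members and the gene lists were chosen with earlier results of these data known. The count model was that of edgeR 4.0.16 under R 4.3.3 (filter by filterByExpr, TMM factors, 1 robust quasi-likelihood fit over 9 libraries, genotype as the only term, Benjamini-Hochberg over 21994 genes, called under 0.05). SNORD115-7 failed the filter. CPM are TMM-scaled, with SD over 3 libraries, unless given on total counts. Fold bounds use a floor of 3 counts over a group, and zero shares a floor of 3 counts per library; both cover counting error only. Alternatives were DESeq2 1.42.0, other factors and filters, left-out libraries and a replicate block. Libraries of 1 number deviated together for addback and WT (correlations 0.84, 0.56 and 0.71), and with KO they did not. The labels state no pairing, and why these libraries deviated together was not tested. No libraries of a group were copies (chi-square per degree of freedom 1.99 to 44.5). The fit was checked on simulated data. Sequences and current host names come from GENCODE v29, hosts from the deposited locus spans. The text names the 12 loci of highest CPM, up to 6 called loci at each end of a comparison, loci at the threshold, independently transcribed loci, their hosts and up to 3 genes per list; others named were chosen after their values were seen.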

Additional observations from a re-analysis of the deposited data

How the results depend on the processing

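In place of the 62 loci called in KO against WT, 15 were called with a filter of 1 CPM in 3 libraries, 27 when only the groups compared were fitted, 32 without libraries 2 and 3 of addback and WT, 32 outside SNORD113 to SNORD116 and 3 among loci with a mean of 10 counts in each group. For addback against KO, with 56, the numbers were 12, 27, 31, 26 and 1. Leaving out 1 library gave 48 to 69 and 44 to 61 calls. In addback against WT, 0 were called by edgeR throughout, except 1, SNORA68, without libraries 2 and 3. With the replicate number as a block, 78, 74 and 0 were called. KO libraries did not deviate together with other libraries of the same number (correlations -0.08 to 0.04). Leaving out libraries 2 and 3, added after seeing the data, leaves 1 library in addback and WT, assumed to vary like KO. Libraries of KO differed least from each other, so the calls of this fit can be too many. The cluster copies still tested in it had 0 counts in KO and could enter only through addback and WT. Their calls there were thus largely set in advance and add nothing to the counts. The causes were not tested. No named locus that was called changed its direction. A mean of at least 5 or 20 counts would have kept 318 or 94 loci. Depth limits these results: the median locus outside the clusters had 11 to 28 counts per library, and counts of near-identical copies cannot be told apart.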
